A study of Homo sapiens with 4 samples.

Results

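The genes of the G2 phase and of mitosis were examined in MDA-MB-231 cells, an established human breast cancer line of the mesenchymal, triple-negative kind, with and without a short hairpin RNA against DBC1 (current symbol CCAR2). The set was a list of 55 genes, matched by symbol to probe sets that carry exactly 1 gene symbol, with the brightest probe set standing for a gene. Of the 55 genes, 54 were found among 18417 named genes. CENPA was not used, because its probe set carries a second symbol. Expression was measured on 4 Affymetrix arrays. The labels give 2 of them to untreated cells with the control hairpin shNS and 2 to untreated cells with the hairpin shDBC1, as biological replicates numbered 1 and 2 in each line. Both lines therefore carry a hairpin, and the labels do not say how many hairpins or clones stand behind each, nor what 2 arrays of the same number share. The p-values below measure the spread between these arrays.

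Passage through G2 and mitosis is driven by the kinase CDK1 with its A and B cyclins, followed by the Polo and Aurora kinases. Kinesins and microtubule-binding proteins build the spindle, and the spindle checkpoint holds the anaphase-promoting complex in check until every kinetochore is attached. Most of these genes are transcribed late in the cell cycle, through a promoter element called the CHR (cell cycle genes homology region) that is bound by the MuvB complex with B-MYB and FOXM1, often beside CCAAT boxes bound by NF-Y. In a bulk sample, fewer cells in G2 or mitosis and less RNA per such cell cannot be told apart.

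Most mitotic genes read slightly lower in shDBC1 cells, and none passed the test. The mean log2 intensity was lower in shDBC1 for 51 of the 54 genes (94.4%), against 47.7% of the 13813 genes tested, and the median difference, shDBC1 minus shNS, was -0.15 log2 units against 0.0065 over all genes. Compared within arrays of the same number, the median was -0.14 for number 1 and -0.16 for number 2, and 40 of 54 genes (74.1%) were lower in both numbers, against a background of 27.6%. Only 1 gene was higher in both, against 26%. The 7 genes at -0.3 or below were NCAPH (-0.57), HMMR (-0.55), AURKA (-0.50), CDCA8 (-0.39), CDC25B (-0.34), BIRC5 (-0.31) and SGO2 (-0.30). With the probe sets of a gene averaged, BIRC5 was at -0.21. Of the members, 0 reached 1.5-fold in either direction. The 3 genes above zero were CDKN3 (0.10), BUB3 (0.08) and CENPI (0.0046), the last of which lay below zero after median centring (-0.016).

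The test was limma on the log2 values over all 13813 genes, with Benjamini-Hochberg adjustment. It called 0 genes at an adjusted p under 0.05 (0%), and the lowest adjusted p of a member was 1. At an unadjusted p under 0.05, 2 members were lower (AURKA and CDC25B) and 0 were higher, with 2.57% of all genes lower at that level. A fit with the replicate number as a block, given with the alternatives, also called 0 members, with 0.681% of all genes called lower and 0.138% higher. The 95% interval of the difference included 0 for 52 of the 54 genes, and its median half-width was 0.36. With 2 arrays against 2, an exact permutation test of 1 gene cannot go below p = 0.333. Both shDBC1 arrays lay below both shNS arrays for 15 members (27.8%), against 13.2% of all genes, and above them for 1 member, CDKN3, against 11.6%. The count of 15 became 28 after centring each array on its median, where the background was 15.3%. After repeated quantile normalisation it was 12, with a background of 13.3%. The median difference depended on which arrays entered it. It was -0.077 with shNS array 1 left out, -0.24 with shNS array 2 left out, -0.26 with shDBC1 array 1 left out and -0.049 with shDBC1 array 2 left out.

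**Figure D1:**
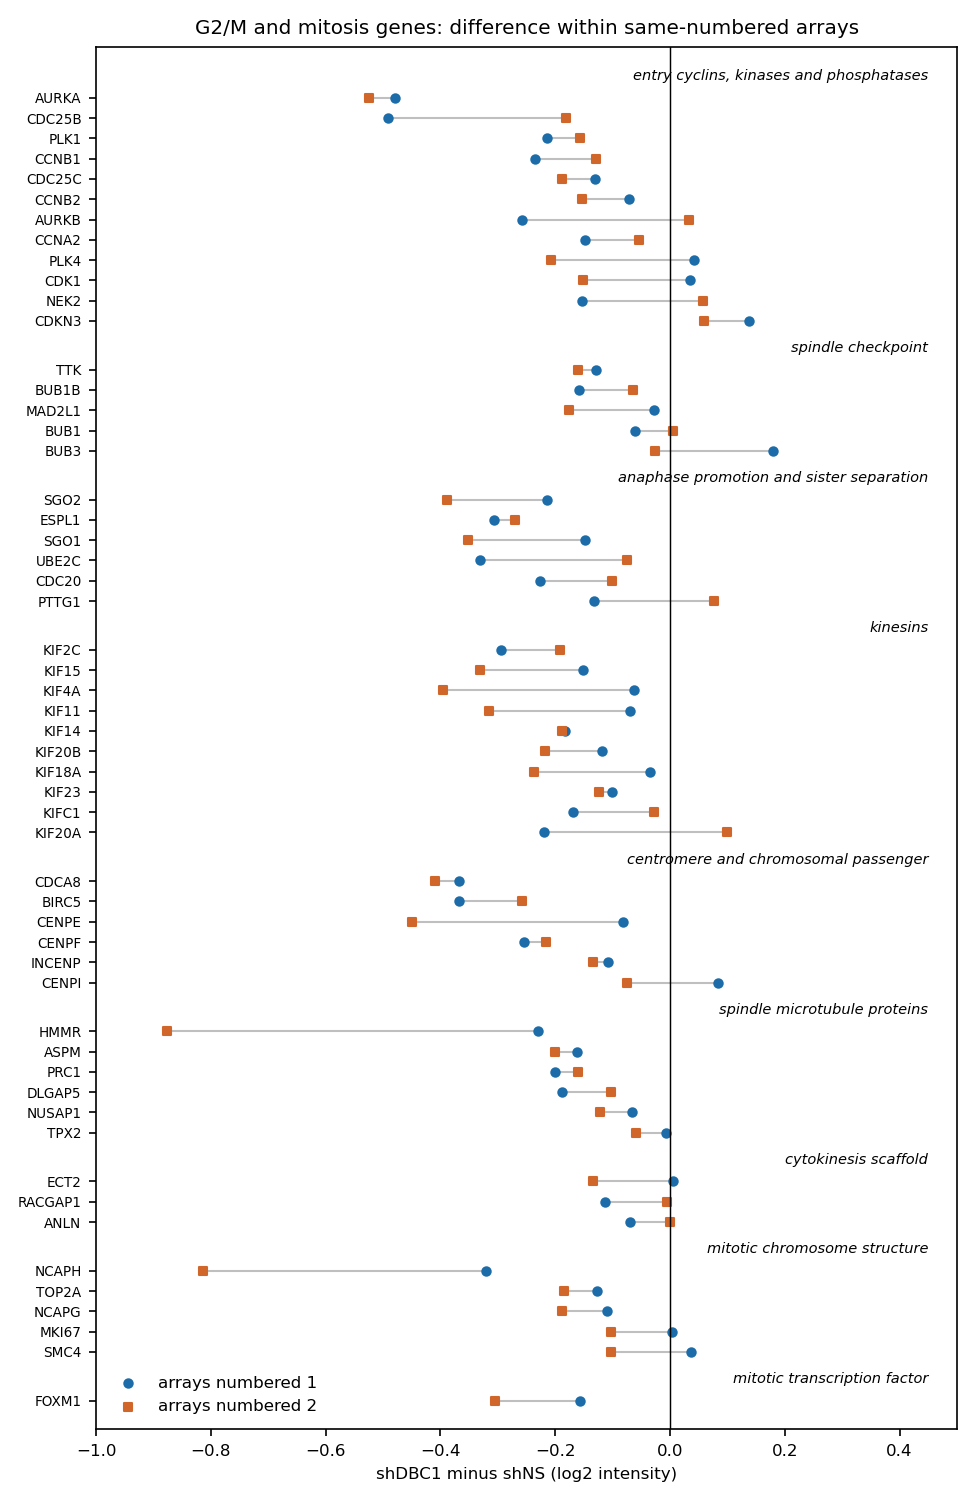
Difference in log2 intensity, shDBC1 minus shNS, for 54 genes grouped by role; circles are the arrays numbered 1, squares those numbered 2, and each grey line joins the values of a gene. Of the 54 genes, 40 have both marks left of zero and only CDKN3 has both right of it; HMMR and NCAPH have the lowest squares (-0.88 and -0.81).

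The level of these genes also differed between the replicate numbers. Array 2 read below array 1 in both lines for 41 of the 54 members (75.9%), against 34.6% of all genes. The median of array 2 minus array 1 was -0.15 in shNS and -0.20 in shDBC1, at least as large as the median difference between the lines. The 2 lines' arrays overlapped for 38 of the 54 members, and for 10380 of the 13813 genes tested, so overlap was not particular to the set. The within-number values above hold the number fixed. Across the 54 members the difference in number 1 and that in number 2 had a Pearson correlation of 0.361 (Spearman 0.296), against 0.387 (0.235) over all genes. These are correlations across genes of the same 4 arrays, and genes are not independent replicates.

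CCAR2, the target of the hairpin, read 9.62 and 9.41 in shNS and 8.76 and 8.16 in shDBC1, arrays 1 and 2 in that order here and below. The groups did not overlap, and the difference of -1.06 (SE 0.23) had a limma adjusted p of 1. All 8 mesenchymal markers looked at passed the level filter, with mean levels from 6.97 (SPARC) to 12.89 (CD44). VIM among them read 12.56 to 12.65 in shNS and 12.44 to 12.52 in shDBC1. ESR1 and PGR, the hormone receptor genes that triple-negative cells lack, lay below the level filter of 6.58. Of the markers of other cell types, 8 of 10 luminal genes, 3 of 6 fibroblast genes, 2 of 6 leukocyte genes and 2 of 5 genes of kidney-derived or neural-like cells passed that filter, and 0 of them were called. The luminal keratin genes KRT8, KRT18 and KRT19 were bright as well, with mean levels of 12.54, 11.88 and 11.29.

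Promoter sequences were read for the genes of the set, because the CHR and the CCAAT box are shared elements of this class. RefSeq's table (GRCh38.p14) held 61 start sites for 47 of the 55 genes, and 9 genes had several, whose windows may overlap. It was not matched for AURKA, BIRC5, BUB3, FOXM1, RACGAP1, TPX2, TTK and UBE2C. In the 250 bases before the start, a CHR hexamer (TTTGAA or TTCGAA, either strand) was present in 29 of 61 windows (47.5%), against 14.3% of all 35116 windows. A CCAAT box (CCAAT, either strand) was present in 44 windows (72.1%), against 32%, and both in 23 (37.7%), against 5.05%. The 26 members with a CHR hexamer had a median difference of -0.15 and 25 of them were below zero. The 20 without it had a median of -0.11 and 19 below zero. Genes below zero were the majority with and without the hexamer, and a match is a description of letters, not of binding.

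The 6 upstream windows printed here belong to the members with the smallest p that hold a CHR hexamer, and show how close to the start it lies. Capitals mark the CHR hexamer and the CCAAT boxes; each sequence reads 5′ to 3′ on the gene's strand and ends at the base before the start. The windows are chr20:3796060-3796309 (plus strand) for CDC25B, chr5:163460382-163460631 (plus) for HMMR, chr1:197146670-197146919 (minus) for ASPM, chr3:44761544-44761793 (plus) for KIF15, chr1:37692266-37692515 (plus) for CDCA8 and chr12:53268049-53268298 (plus) for ESPL1.
CDC25B: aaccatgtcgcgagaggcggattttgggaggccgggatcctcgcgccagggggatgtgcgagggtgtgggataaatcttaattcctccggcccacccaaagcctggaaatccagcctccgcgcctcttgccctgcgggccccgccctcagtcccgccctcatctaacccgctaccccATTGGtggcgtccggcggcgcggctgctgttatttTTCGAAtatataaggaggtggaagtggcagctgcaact
HMMR: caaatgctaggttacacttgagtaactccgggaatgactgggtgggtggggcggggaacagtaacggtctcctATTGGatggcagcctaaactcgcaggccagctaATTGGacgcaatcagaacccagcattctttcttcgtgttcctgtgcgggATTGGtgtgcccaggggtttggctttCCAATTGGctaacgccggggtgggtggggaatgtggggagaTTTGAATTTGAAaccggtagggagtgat
ASPM: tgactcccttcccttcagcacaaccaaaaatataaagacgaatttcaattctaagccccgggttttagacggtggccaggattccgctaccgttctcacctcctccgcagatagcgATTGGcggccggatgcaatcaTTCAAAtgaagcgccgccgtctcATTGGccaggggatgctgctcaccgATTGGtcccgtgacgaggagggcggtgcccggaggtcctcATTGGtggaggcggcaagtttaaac
KIF15: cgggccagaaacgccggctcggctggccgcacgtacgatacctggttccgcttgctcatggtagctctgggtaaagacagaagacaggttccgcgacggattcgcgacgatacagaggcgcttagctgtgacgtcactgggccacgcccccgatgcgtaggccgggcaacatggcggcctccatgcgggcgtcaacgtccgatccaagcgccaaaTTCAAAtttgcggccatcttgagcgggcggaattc
CDCA8: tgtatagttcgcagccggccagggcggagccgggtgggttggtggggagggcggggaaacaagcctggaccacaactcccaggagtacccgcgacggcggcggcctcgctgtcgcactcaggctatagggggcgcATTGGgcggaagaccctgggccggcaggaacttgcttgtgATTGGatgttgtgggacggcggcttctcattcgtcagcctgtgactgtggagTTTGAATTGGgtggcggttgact
ESPL1: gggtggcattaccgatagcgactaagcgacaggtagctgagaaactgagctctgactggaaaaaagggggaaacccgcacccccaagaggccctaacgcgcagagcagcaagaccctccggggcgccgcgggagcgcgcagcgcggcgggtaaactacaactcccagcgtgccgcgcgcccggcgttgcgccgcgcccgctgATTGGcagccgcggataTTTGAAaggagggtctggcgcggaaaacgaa
In CDC25B the hexamer TTCGAA ran from 38 to 33 bases before the start, and in ESPL1 TTTGAA ran from 31 to 26. HMMR held TTTGAA at 28 to 23 and again at 22 to 17 bases before the start, next to each other. In CDCA8 it ran from 23 to 18 and shared bases with a CCAAT box on the other strand, and in KIF15, which had no CCAAT box, it was TTCAAA, the reverse complement, at 35 to 30. ASPM differed in position, with TTCAAA at 113 to 108 bases before the start. In the expression data all 6 genes were below zero, from -0.18 for ASPM to -0.55 for HMMR. They were chosen by smallest p in a set with 51 of 54 genes below zero, so their sign does not bear on the hexamer.

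The cyclins, kinases and phosphatases of mitotic entry were below zero in 11 of 12 genes, with a median of -0.11. AURKA, the kinase of centrosome maturation and spindle poles, had the smallest p of the set. It read 11.81 and 11.58 in shNS and 11.33 and 11.05 in shDBC1. Both shDBC1 arrays were below both controls, and the difference was nearly equal in the 2 numbers (-0.48 and -0.52). The difference was -0.50 (SE 0.16, interval -0.92 to -0.085), or 1.42-fold lower (limma unadjusted p = 0.0277, adjusted p = 1). CDC25B, a phosphatase that activates CDK1 at the centrosome, read 10.73 and 10.54 in shNS cells against 10.23 and 10.36 in shDBC1, a difference of -0.34 (SE 0.13). Its groups did not overlap either, with the larger difference in number 1 (-0.49 against -0.18). CDC25C, the related phosphatase, read 9.11 and 9.28 against 8.98 and 9.09 (-0.16, SE 0.12).

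CDK1 and its cyclins differed little. CDK1 itself read 10.42 and 10.48 in shNS and 10.46 and 10.33 in shDBC1, a difference of -0.06 (SE 0.11), and its sign differed between the numbers (0.03 and -0.15). CCNB1 differed by -0.18 (SE 0.14), CCNB2 by -0.11 (SE 0.11) and CCNA2 by -0.10 (SE 0.12). All 3 cyclin genes were lower in both numbers, and CCNB2 was the one whose groups did not overlap. PLK1, the Polo kinase of mitotic entry, differed by -0.19 (SE 0.17) and was lower in both numbers, while PLK4, the kinase of centriole duplication, was split (0.04 and -0.21). AURKB, the Aurora kinase of the chromosomal passenger complex, differed by -0.11 (SE 0.18), with -0.26 in number 1 and 0.03 in number 2. NEK2, a kinase of centrosome separation, had the difference nearest 0 of this group, at 10.35 and 10.30 against 10.20 and 10.36 (-0.05, SE 0.12). CDKN3, a phosphatase that acts on cyclin-dependent kinases, stood on the other side of zero, at 11.36 and 11.43 in shNS and 11.49 in both shDBC1 arrays (0.10, SE 0.10).

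**Figure D2:**
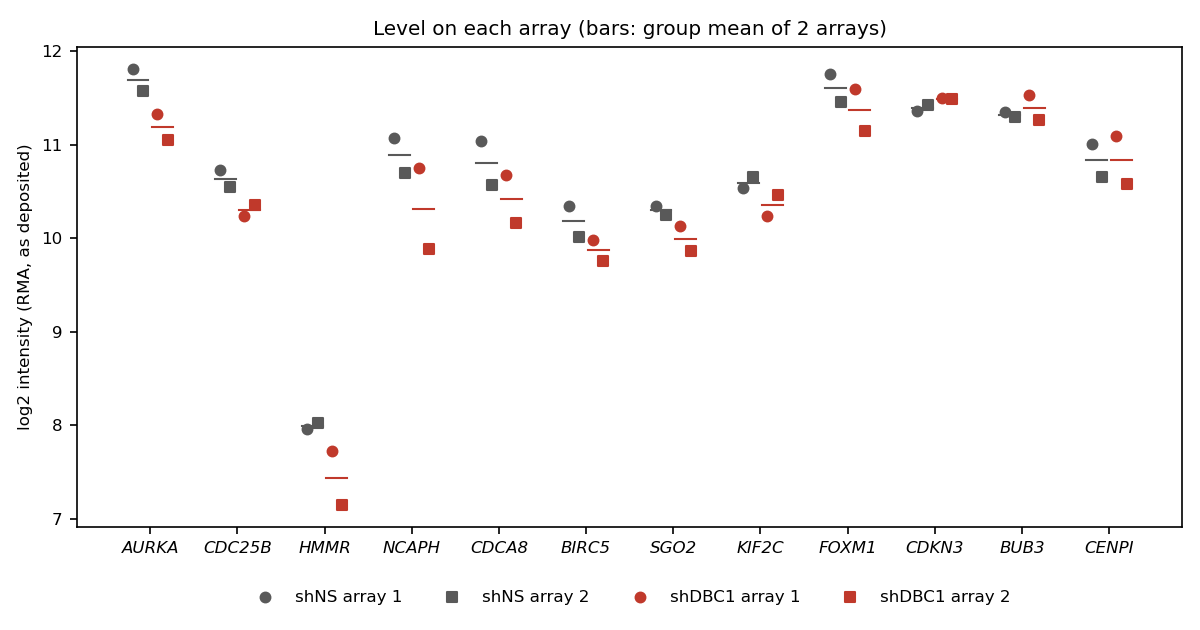
Log2 intensity on each of the 4 arrays for 12 genes of the set; grey marks are shNS, red marks shDBC1, circles array 1, squares array 2, and short bars the mean of 2 arrays. The red marks lie below the grey ones in AURKA, CDC25B, HMMR, BIRC5, SGO2 and KIF2C, and the groups overlap in NCAPH, CDCA8, FOXM1, BUB3 and CENPI.

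Spindle checkpoint genes differed from -0.14 to 0.08, with a median of -0.10 over 5 genes. TTK, the kinase MPS1 that starts the checkpoint at kinetochores, read 9.85 and 9.89 in shNS and 9.72 and 9.73 in shDBC1. The arrays of each line were close to each other, the groups did not overlap, and the difference was -0.14 (SE 0.10). MAD2L1, the inhibitor of CDC20, read 10.55 and 10.57 against 10.53 and 10.39 (-0.10, SE 0.11), also without overlap. BUB1B (BUBR1) read 10.86 and 10.57 against 10.70 and 10.51, and its arrays overlapped (-0.11, SE 0.15). BUB1, the checkpoint kinase that brings shugoshins to centromeres, was nearest 0, at 11.62 and 11.44 against 11.56 and 11.45 (-0.03, SE 0.12). BUB3, the partner of both, was above zero in number 1 (0.18) and below in number 2 (-0.03).

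Genes of anaphase and of sister chromatid separation were below zero in 6 of 6 cases, with a median of -0.23. SGO2 and SGO1 encode shugoshins, which protect centromeric cohesin until anaphase. SGO2 read 10.34 and 10.25 in shNS and 10.13 and 9.86 in shDBC1 (-0.30, SE 0.14), and SGO1 read 10.70 and 10.56 against 10.55 and 10.21 (-0.25, SE 0.16). Neither gene's groups overlapped, and both had the larger difference in number 2. ESPL1, the protease separase that cuts cohesin, read 9.56 and 9.17 against 9.26 and 8.90, a difference of similar size in both numbers (-0.31 and -0.27). Its groups overlapped because array 2 was lower than array 1 in both lines. The anaphase-promoting complex partners CDC20 and UBE2C differed by -0.16 (SE 0.23) and -0.20 (SE 0.17). PTTG1, the separase inhibitor securin, was nearest 0 at 10.83 and 10.77 against 10.70 and 10.84 (-0.03, SE 0.11).

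All 10 kinesin genes were below zero, from -0.24 to -0.06, with a median of -0.18, and 9 of them were lower in both numbers. KIF2C, the microtubule-depolymerising kinesin of centromeres, read 10.53 and 10.66 in controls against 10.24 and 10.47 in knockdown cells (-0.24, SE 0.13). KIF15, which helps hold spindle poles apart, read 9.98 and 9.86 against 9.83 and 9.53 (-0.24, SE 0.15). These 2 genes and KIF18A, a kinesin that limits kinetochore microtubule length, were the kinesins whose groups did not overlap. For KIF18A the groups all but touched, with 10.5273 on shNS array 2 and 10.5272 on shDBC1 array 1. KIF14, a kinesin of cytokinesis, read 9.79 and 9.60 against 9.60 and 9.41, with about the same difference in number 1 (-0.18) and number 2 (-0.19). KIF11, the bipolar kinesin Eg5, differed by -0.07 in number 1 and -0.32 in number 2. KIF4A, a chromosome-bound kinesin, differed by -0.06 and -0.40. KIF4A has a close copy, KIF4B, and the probe set that names both was not used (it differed by -0.21). KIF23 (-0.11), KIFC1 (-0.10) and KIF20B (-0.17) were lower in both numbers. KIF20A, which carries the passenger complex to the midzone, was split, at 11.61 and 11.53 against 11.40 and 11.63 (-0.06, SE 0.13).

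Centromere and chromosomal passenger genes had the lowest group median, -0.25, with 5 of 6 below zero. The passenger complex brings AURKB to centromeres, and 3 of its other subunits were in the set. CDCA8 (borealin) read 11.04 and 10.57 in shNS and 10.67 and 10.16 in shDBC1 (-0.39, SE 0.25), with differences of -0.37 and -0.41. BIRC5 (survivin) read 10.35 and 10.01 against 9.98 and 9.76 (-0.31, SE 0.17), and its groups did not overlap. A dimmer BIRC5 probe set, with a mean level of 6.45, was not used and differed by -0.11. INCENP, the scaffold of the complex, differed by -0.12 (SE 0.13), and was lower in both numbers. CENPE, the kinetochore kinesin that moves chromosomes to the spindle equator, read 9.90 and 9.78 against 9.82 and 9.33, so most of its difference (-0.27, SE 0.19) lay in number 2. CENPF, a kinetochore and nuclear envelope protein of G2, differed by -0.23 (SE 0.17) and had similar differences in both numbers. CENPI, a subunit of the constitutive centromere network, read 11.01 and 10.66 against 11.09 and 10.58, and the sign of its difference was not the same in both numbers (0.08 and -0.07).

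Among 6 microtubule-binding spindle proteins, all were lower in both numbers (median -0.16). HMMR, which encodes a spindle protein that also binds hyaluronan, read 7.96 and 8.03 in shNS and 7.73 and 7.15 in shDBC1. It was 1.47-fold lower (-0.55, SE 0.22), with most of the difference on the second array (-0.88 against -0.23). HMMR was the only member below the 50th percentile of mean intensity, where RMA compresses differences. ASPM, the spindle-pole protein, read 10.28 and 10.27 against 10.12 and 10.07, which are close values within each line (-0.18, SE 0.10). PRC1, the crosslinker of the central spindle, read 11.65 and 11.45 against 11.45 and 11.29 (-0.18, SE 0.13). DLGAP5, which stabilises kinetochore microtubules, differed by -0.15 (SE 0.11), and its groups did not overlap. TPX2, the activator of AURKA on the spindle, was nearest 0, at 12.04 and 11.94 against 12.03 and 11.88 (-0.03, SE 0.12). NUSAP1 differed by -0.09 (SE 0.11).

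The cytokinesis scaffold genes had the median nearest 0 of the 9 roles, -0.06, with overlapping groups in all 3. ECT2, the exchange factor for RhoA at the cleavage furrow, read 11.41 and 11.46 in shNS cells against 11.41 and 11.32 in shDBC1. RACGAP1, a subunit of centralspindlin, read 11.41 and 11.20 against 11.30 and 11.20. ANLN, the actin-binding anillin, read 12.43 and 12.34 against 12.36 and 12.34. Their differences ran from -0.06 to -0.035.

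Of 5 genes for mitotic chromosome structure, all were below zero on average and 0 had groups without overlap. NCAPH, the kleisin subunit of condensin I, had the largest difference of the whole set and also a wide spread. It read 11.07 and 10.70 in shNS and 10.75 and 9.89 in shDBC1, a difference of -0.57 (SE 0.32, interval -1.42 to 0.29), with -0.32 in number 1 and -0.81 in number 2. Its condensin partners differed less. NCAPG read 11.36 and 10.91 against 11.25 and 10.72 (-0.15, SE 0.25), and SMC4 read 10.90 and 10.79 against 10.93 and 10.69 (-0.03, SE 0.13). TOP2A, the topoisomerase that untangles sister chromatids, read 12.15 and 11.99 against 12.02 and 11.81 (-0.16, SE 0.13). MKI67, the proliferation marker Ki-67, differed by -0.05 (SE 0.25). FOXM1, the transcription factor of this gene class, read 11.76 and 11.45 against 11.60 and 11.15 (-0.23, SE 0.21), lower in both numbers with overlapping groups.

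Other genes of the same phase were also mostly below zero. Of 25 further late G2/M transcripts outside the set, 23 were below zero and 20 were lower in both numbers, with a median of -0.15 and 0 called. PSRC1, a spindle protein, read 9.27 and 9.12 in shNS cells against 8.72 and 8.80 in shDBC1 (-0.43, SE 0.12), without overlap. FAM83D, which brings casein kinase to the spindle, read 10.85 and 10.53 against 10.37 and 10.01 (-0.50, SE 0.19), also without overlap. Among 29 further kinetochore genes 22 were below zero (75.9%, against 47.7% of all genes) and the median was -0.10. Only 8 were lower in both numbers (27.6%), the same share as over all genes (27.6%). The outer kinetochore genes NDC80 (-0.31, SE 0.18) and SPC24 (-0.23, SE 0.13) had the smallest p of that list. In number 1 its median was 0.027, so its genes were below zero mainly in number 2 (median -0.15).

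Genes that act around the set were counted in further lists. Subunits and partners of the anaphase-promoting complex had 14 of 20 genes below zero and a median of -0.06, with ANAPC4 at 0.23 (SE 0.16) and ANAPC13 at 0.16 (SE 0.12). Condensin and cohesin genes outside the set had 12 of 14 below zero and a median of -0.03. Their smallest p belonged to STAG1 (-0.17, SE 0.17) and RAD21 (-0.12, SE 0.12), which encode cohesin subunits. RAD21 was lower in both numbers, and STAG1 was split (0.09 in number 1 and -0.43 in number 2). Mitotic entry regulators had 13 of 17 below zero and a median of -0.13, with the phosphatase genes CDC14B at -0.30 (SE 0.12) and PPP2R2D at -0.26 (SE 0.11). Neither gene's groups overlapped. The regulators of G2/M transcription had 11 of 17 below zero and a median of -0.05. NFYA, a subunit of the CCAAT-binding factor, was above zero, at 11.31 and 11.29 in shNS cells against 11.67 and 11.61 in shDBC1 (0.34, SE 0.10). TFDP1, the partner of E2F factors, differed by -0.34 (SE 0.15). In these lists 0 genes were called by limma. The share lower in both numbers was 30% for the anaphase-promoting complex and 21.4% for condensin and cohesin, against 27.6% of all genes. It was 58.8% for mitotic entry regulators and 41.2% for the regulators of transcription. Among the 20 anaphase-promoting complex genes, 6 were lower and 6 were higher in both numbers.

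**Figure D3:**
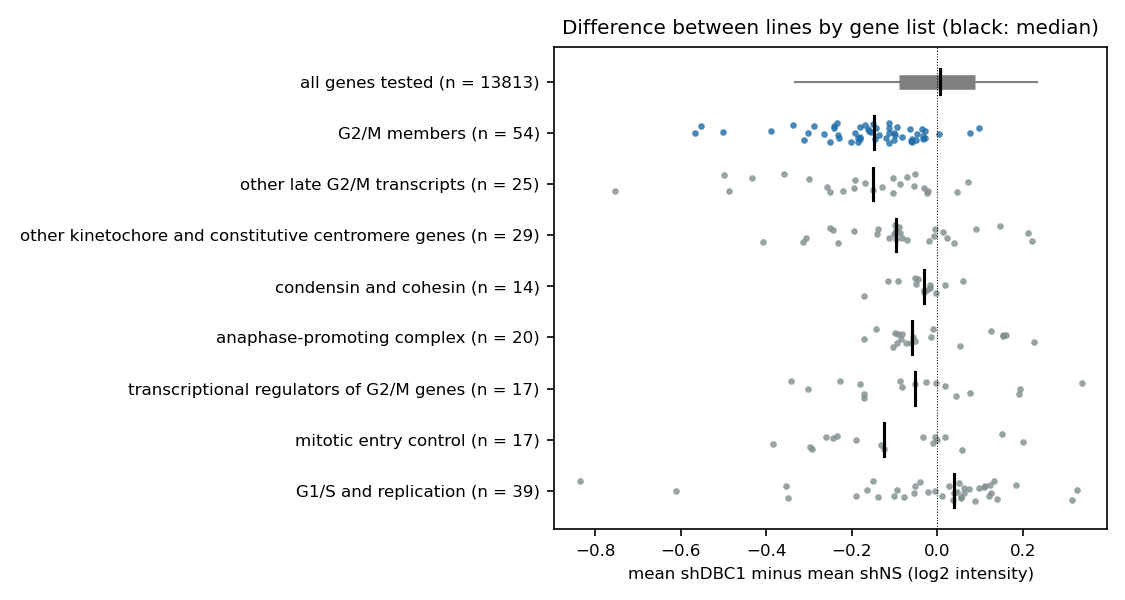
Mean shDBC1 minus mean shNS in log2 intensity for each gene of the set (blue) and of 7 other lists (grey), with black bars at the medians; for all 13813 genes the thick bar spans the interquartile range and the thin line the 5th to 95th percentiles. The G2/M set and the other late G2/M transcripts have medians of -0.15, and the G1/S and replication list has its median at 0.04.

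Genes of G1/S and DNA replication, the preceding phase, had 16 of 39 below zero and a median of 0.04, with 0.08 in number 1 and -0.05 in number 2. In these genes the replicate number stood out more than the line, since 37 of 39 read lower on array 2 in both lines. Their median of array 2 minus array 1 was -0.26 in shNS and -0.45 in shDBC1. GINS3, a subunit of the replicative helicase, was an exception in size, at 9.50 and 9.27 in shNS cells against 8.87 and 8.22 in shDBC1 (-0.84, SE 0.25), and E2F3 differed by -0.61 (SE 0.26). The difference between the G2/M and the G1/S medians was not tested.

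**Figure D4:**
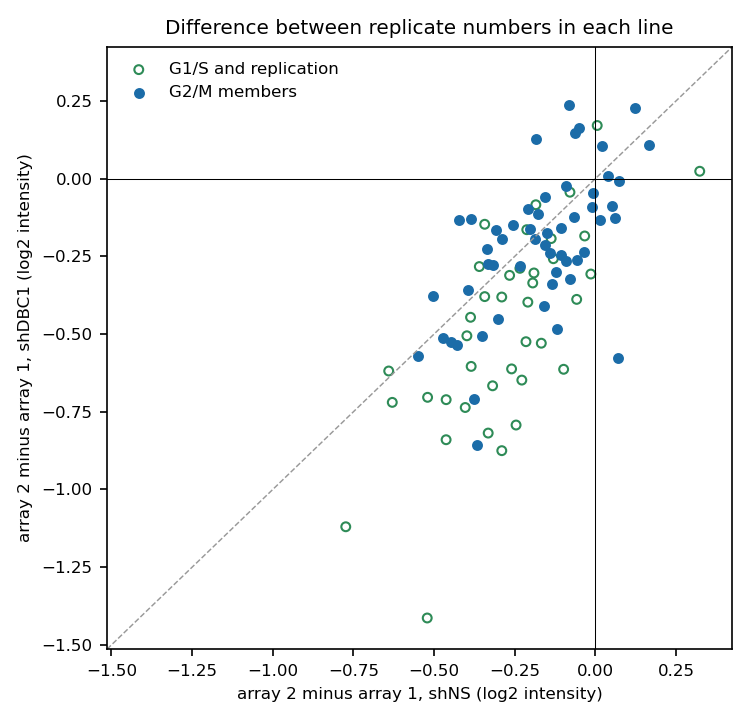
Array 2 minus array 1 in log2 intensity within shNS (horizontal) and within shDBC1 (vertical) for the G2/M genes (filled) and the G1/S and replication genes (open); the dashed line marks equal values. Of 54 G2/M genes 41, and of 39 G1/S genes 37, lie left of and below zero.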

How the data were processed

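Total RNA of 4 MDA-MB-231 cultures was hybridised to 1 array each. The deposited values are log2 intensities per probe set; the authors used GCOS and RMA, per the submitters' processing notes, with no versions given in the sources used here. The log2 scale was inferred, from RMA being named and a range of 2.52 to 14.1. RMA sets array distributions alike, so a shift shared by all genes would not be seen. Probe sets with 1 symbol (19460 of 33297) were kept, the brightest per gene, and genes under the 25th percentile of mean level (log2 6.58) were left out, which left 13813 of 18417. Those genes were fitted in R 4.3.3 with limma 3.58.1, whose lmFit and eBayes took group as the single term (two-sided), and SE and 95% intervals come from it. For arrays, their number (2 per group) limits the precision. The procedure was tested on simulated data.

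The members, lists and tests were chosen with earlier results of these data known. The rule for genes with values on each array took, in every role, up to 3 members with the smallest unadjusted p and the 1 nearest 0, and up to 2 genes of each other list, with CCAR2; further members are given by their differences. Filters, scalings, priors, probe set averaging, a replicate block and leaving out each array were tried as alternatives.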

Additional observations from a re-analysis of the deposited data

How the results depend on the processing

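Under each filter, scaling, prior and probe set choice, and without each array, limma called 0 genes over the whole table and 0 members. With a replicate block it called 113 genes (19 higher, 94 lower) and 0 members. Deviations from the group mean correlated at 0.653 across genes between arrays of the same number, and the labels do not say what a number shares. In the blocked fit AURKA had the lowest adjusted p of the set (0.0772), while CCAR2 (0.0232) and GINS3 (0.0343) passed. The median of the members was -0.15 with no filter, with the 50th percentile filter, with cyclic loess, with averaged probe sets and with the block, -0.14 after repeated quantile normalisation and -0.17 after median centring. Leaving out 1 array, which unbalances the numbers, gave -0.26 to -0.049. The count with both shDBC1 arrays lower was 28 after median centring and 12 after repeated quantile normalisation. With 1 array left out fewer arrays had to separate, and the share over all genes rose as well. The count was then 17 of 54 without shNS array 1 (all genes 30.7%) and 18 without shDBC1 array 2 (28.9%), near the background. It was 43 without shNS array 2 (31.8%) and 47 without shDBC1 array 1 (32.4%). CENPI was at -0.016 after median centring, the only sign change among 328 values of named genes outside the left-out arrays. With 1 array left out, 18 of 188 values changed sign, with ranges of NEK2 -0.13 to 0.033, BUB1B -0.26 to 0.033, BUB1 -0.12 to 0.061, PTTG1 -0.10 to 0.045, KIF20A -0.18 to 0.059, CENPI -0.25 to 0.26, TPX2 -0.11 to 0.046, RACGAP1 -0.16 to 0.044, ANLN -0.081 to 0.011, NCAPG -0.41 to 0.11, SMC4 -0.16 to 0.090, STAG1 -0.37 to 0.028. The fit without an array has 1 lone array in a group, assumed to vary like the other group; the cause of these changes was not tested. Differences of about 0.36 log2 units or less lay within the typical interval of a member.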

Other observations

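Some genes of the neighbouring lists stood further from zero than most of the set; those named here were chosen after their values were seen, and each had a limma adjusted p of 1. CDCA5, which encodes sororin, the protector of sister chromatid cohesion, read 9.95 and 9.44 in shNS and 9.44 and 8.44 in shDBC1 (-0.75, SE 0.38). Its difference was -0.50 in number 1 and -1.01 in number 2. KIF18B, a kinesin of astral microtubules, read 10.48 and 9.99 against 9.98 and 9.52 (-0.49, SE 0.24), with nearly the same difference in both numbers (-0.51 and -0.47). BORA, a cofactor of AURKA in the activation of PLK1, read 8.79 and 8.45 against 8.45 and 8.01 (-0.38, SE 0.21). AURKA, BORA and PLK1 were all lower within each number, PLK1 by -0.21 in number 1 and -0.16 in number 2.

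NFYA and NFYC, which encode subunits of the CCAAT-binding factor NF-Y, lay on opposite sides of zero. NFYA differed by 0.34 (SE 0.10) and NFYC by -0.30 (SE 0.18), and each had the same sign in both numbers. For NFYC, which read 10.29 and 9.97 in shNS and 10.00 and 9.66 in shDBC1, the groups overlapped, and for NFYA they did not.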
